A study of Homo sapiens with 9 samples.

Results

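DOHH2 lymphoma cells recovered from mouse femurs 40 days after grafting were compared with DOHH2 cells recovered 19 days after grafting. The comparison used the 3 day 40 and the 3 day 19 RNA-seq libraries, 6 of the 9 libraries of the series, chosen by the day given in the sample labels, and 14807 of 58243 gene identifiers passed the filter on low counts and were tested. DOHH2 is an established human B-cell line derived from a follicular lymphoma that had transformed to an aggressive form. Cells of this line were grafted into RAGγc mice, an immunodeficient strain, and every femur group therefore shared the same line and the same host. Femurs were flushed, bone and marrow were dissociated enzymatically, beads carrying antibodies to Cd45 and Ter119 removed mouse blood cells, and the lymphoma cells were sorted on human CD20, in the same way on both days. The other 3 libraries came from cultured DOHH2 cells sampled when mice were grafted (day 0). They passed through neither digestion nor sorting as far as the labels say, and their levels are given here only as a description beside the femur values. The sources used here do not give the age and sex of the mice or how many mice stand behind a library, and all values come from 1 cell line.

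The dates in the sample titles, read as day, month and year, placed the 9 libraries in 3 sampling periods, each with a culture, a day 19 and a day 40 library. The day 19 dates fell 18, 19 and 19 days after the culture date of the same period. The day 40 dates fell 11, 26 and 39 days after it, so by these dates only the day 40 library of the latest period could stem from a graft made near its culture date. In the earliest period the day 40 date preceded the day 19 date by 7 days, and in the others it followed by 7 and 20 days. Replicates 1 to 3 below are the libraries of these periods in date order. Nothing in the labels names separate animals or cultures for the replicates, so p-values measure the spread between these libraries, which may be partly technical.

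The day 19 libraries held 22378070, 21071239 and 23033161 counts and the day 40 libraries 26867356, 29456271 and 24106568 (replicates 1 to 3), so that the day 40 libraries were all deeper (exact two-sided permutation test, p = 0.1, the smallest that 3 against 3 allows). The share of counts in mitochondrial genes was 8.07% ± 0.566 (SD, n = 3) at day 19 and 8.28% ± 0.389 (SD, n = 3) at day 40. The 7 B-cell markers, MS4A1, CD79A and PAX5 among them, together reached 2608 to 2823 CPM (counts scaled to a common library size) at day 19 and 3065 to 3278 CPM at day 40. Of these 7, MS4A1 and CD22 were called higher, and the other markers were not called. PAX5 had 887, 812 and 857 CPM at day 19 and 633, 853 and 754 CPM at day 40. Markers of other cell types were low or absent in both groups. These are counts of human genes, and the sources used here do not give the treatment of mouse reads. The markers therefore do not measure cells of the mouse host. The 8 myeloid markers summed to at most 6.42 CPM, with S100A8 and S100A9 at 0 in all 6 libraries, and the 12 stromal and osteolineage markers to at most 8.22 CPM, with COL1A2, COL3A1, LUM, DCN, POSTN and CXCL12 at 0. The highest stromal marker was PDGFRB, at 3.22 to 6.74 CPM. The 7 T and NK cell markers summed to at most 2.19 CPM with CD2 at 0, and the 6 erythroid markers to at most 0.167 CPM. The 5 megakaryocyte markers summed to at most 2.84 CPM, with PF4, PPBP and GP9 at 0. The 6 endothelial markers summed to 1.64 to 3.19 CPM at day 19 and 3.34 to 4.33 CPM at day 40, with CDH5, KDR, TEK and EMCN at 0. PECAM1 gave nearly all of these endothelial sums, and the culture libraries also held it (139, 167 and 114 counts). It was called higher only with the sampling period as a block among the fits named here (log2 fold change 0.79, edgeR adjusted p = 0.0271). In bulk RNA, fewer cells of a type and less RNA per cell cannot be told apart. On the principal component that took the largest share of the variance (39.61%), the 3 day 40 libraries lay apart from the 3 day 19 libraries, and day 40 replicate 3 lay nearest to them.

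Day 40 replicate 1 stood apart in stress genes. In this library 33 genes were at least 2-fold above all 5 other femur libraries, against 5 in day 40 replicate 2, 3 in day 40 replicate 3 and 0 in each day 19 library. They included heat shock genes: DNAJB1, a chaperone cofactor, had 630 CPM there and 87.5 to 164 CPM in the others, and HSPB1, a small heat shock protein, had 353 CPM there and 74.1 to 97.3 CPM in the others. BAG3, a cofactor of HSP70, had 22.3 CPM there and 1.55 to 2.59 CPM elsewhere. The early response gene JUN had 114 CPM there and 16.6 to 51.3 CPM elsewhere, and TNFAIP3, a feedback inhibitor of NF-kB, had 20.3 CPM there and 1.3 to 2.98 CPM elsewhere. None of these 5 genes was called. Results were therefore also computed without day 40 replicate 1. Without it, 578 genes were called higher and 342 lower. In the germinal centre list 18 genes were then higher and 3 lower, in the interferon list 17 and 1, in the p53 list 6 and 2, and in the precursor B-cell list 2 and 8. The lower calls gained there were CD38 (log2 fold change -0.21, adjusted p = 0.04) in the germinal centre list, SOCS1 in the interferon list and GADD45A and PMAIP1 in the p53 list. The part of these stress genes in the other results was not tested.

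Normal B cells pass through stages that are marked by distinct gene programs. Precursor B cells in the bone marrow use the RAG recombinase and terminal transferase to assemble immunoglobulin genes, and they carry a surrogate light chain. Germinal centre B cells, from which follicular lymphoma arises, depend on the repressor BCL6, which holds back plasma cell differentiation. Type I interferons act through a complex that holds STAT2 and IRF9 on genes that carry an interferon-stimulated response element, many of which encode antiviral proteins.

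The genes called higher at day 40 than at day 19 included the germinal centre genes BCL6 and SERPINA9, the B-cell surface gene CD22 and the interferon-response gene IFI44L. Those called lower included the precursor B-cell genes RAG1, RAG2, DNTT and IGLL1. In all, 704 genes (4.75% of those tested) were called higher at day 40 and 396 (2.67%) were called lower, with edgeR's quasi-likelihood test and a Benjamini-Hochberg adjusted p under 0.05. Changes of at least 2-fold were fewer, with 163 genes higher (1.1%) and 41 lower (0.277%). The median log2 fold change was 0.55 among the genes called higher and -0.39 among those called lower, against 0.0036 over all genes tested. Groups did not overlap for 702 of the 704 higher genes and for all 396 lower genes; over all genes tested, 14.2% lay higher and 12.7% lower at day 40 without overlap. Every gene called higher was higher in all 3 sampling periods, and every gene called lower was lower in all 3. Groups that do not overlap differ in the same direction in every period, so this adds no separate support. With the sampling period as a block in the model, 646 genes were called lower and 1008 higher. The counts were smaller without some day 19 libraries: 337 genes were called higher and 134 lower without day 19 replicate 2. Leaving out day 19 replicate 3 gave 361 and 145. The calls of at least 2-fold fell to 97 higher without day 19 replicate 2, and to 101 higher and 21 lower without day 19 replicate 3.

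**Figure D1:**
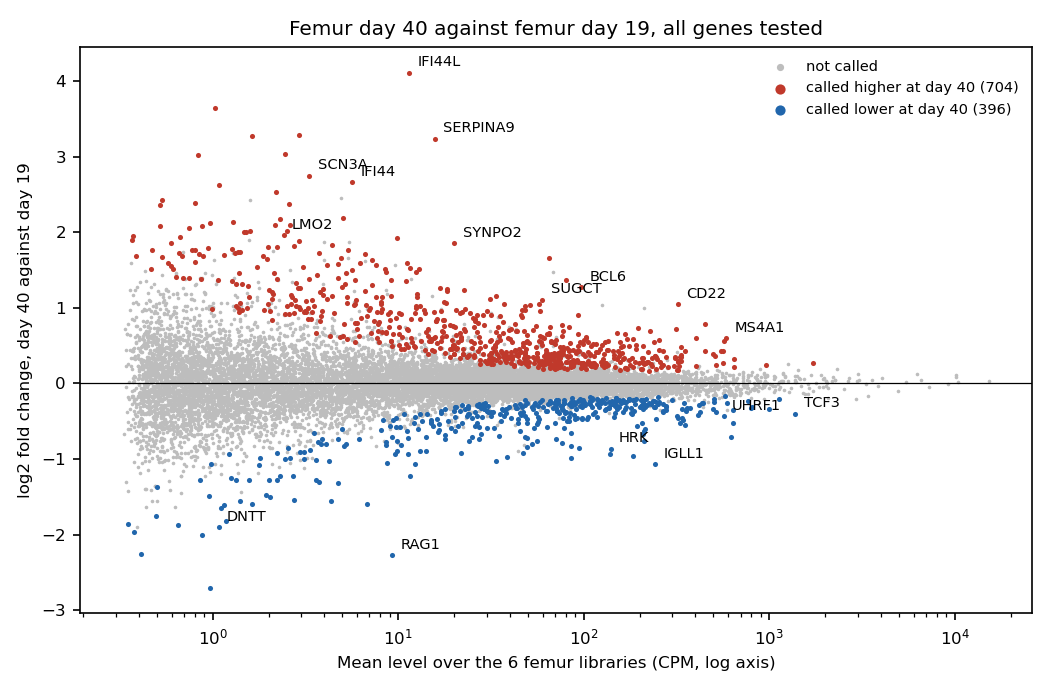
Each point is a gene, with its mean CPM over the 6 femur libraries on the horizontal axis (log scale) and its log2 fold change at day 40 against day 19 on the vertical axis. Red points are the 704 genes called higher and blue points the 396 called lower; IFI44L (4.11) lies at the top and RAG1 (-2.27) is labelled among the falls.

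Germinal centre genes rose more often than they fell. For this list and those below, the shares over all genes tested were 4.75% called higher and 2.67% called lower. Of 34 tested members of the germinal centre list, 19 were called higher and 2 lower, with a median log2 fold change of 0.33. The gene with the smallest p among the members was BCL6 (chromosome 3, 187721377 to 187745727, minus strand, hg38), the repressor that defines the germinal centre state. Its levels were 59.4, 53.8 and 58.3 CPM in the day 19 libraries and 139, 140.4 and 133 CPM in the day 40 libraries. The groups were far apart and each was tight, and the log2 fold change was 1.27 (SE 0.0553; edgeR adjusted p = 3.61e-06). The culture libraries had 428 CPM ± 38.1 (SD, n = 3), so that the day 40 level lay between day 19 and culture.

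Of the 11 transcription factors of the germinal centre list, 7 were higher, BCL6 included. LMO2, a transcription cofactor used as a germinal centre marker, had 0.853, 1.42 and 0.689 CPM at day 19 and 3.85, 5.34 and 2.3 CPM at day 40 (log2 fold change 1.96, SE 0.359; edgeR adjusted p = 0.00937). All 3 day 40 libraries were above the day 19 libraries, and all 6 were far below the culture mean of 63.7 CPM. MEF2C rose by 0.63 and IRF8 by 0.35 on the log2 scale, and MEF2B (0.48), SPIB (0.30) and POU2AF1 (0.18) were called with smaller margins. The IRF8 call was lost without day 19 replicate 2 (adjusted p = 0.0554). The calls of MEF2B, SPIB and POU2AF1 were each lost without day 19 replicate 2 (adjusted p = 0.15, 0.154 and 0.105), without day 19 replicate 3 (0.0669, 0.138 and 0.223), on leaving out day 40 replicate 2 (0.0512, 0.0891 and 0.141) and on leaving out day 40 replicate 3 (0.0544, 0.0793 and 0.103). MEF2B and POU2AF1 were also lost without day 19 replicate 1 (0.0949 and 0.12), as was MEF2B on leaving out day 40 replicate 1 (0.0957). EBF1, an early B-lineage factor, went the other way. It had 81.4, 85.2 and 82 CPM at day 19 and 49.3, 65.5 and 57.6 CPM at day 40, a fall of 0.53 on the log2 scale (edgeR adjusted p = 0.00661). PAX5 (log2 fold change -0.19, adjusted p = 0.269) and BACH2 (-0.11, adjusted p = 0.281) were not called.

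Among surface and signalling members, 5 of 10 were higher and 1 was lower. CXCR5, the receptor for the follicular chemokine CXCL13, had 6.28, 4.94 and 5.17 CPM at day 19 and 10.9, 10.9 and 10.6 CPM at day 40, without overlap (log2 fold change 0.98, SE 0.131; edgeR adjusted p = 0.00192). Its exons overlap those of BCL9L on the opposite strand, which was not called (35.4 against 42.4 CPM, adjusted p = 0.144). The BCL9L groups did not overlap, with 36.6, 35.4 and 34.2 CPM at day 19 and 49.5, 38.5 and 39.2 CPM at day 40. Its edgeR adjusted p was 0.0504 with the sampling period as a block and 0.0185 without a filter on low counts. The part of BCL9L reads in the CXCR5 levels was not tested. IL21R, the receptor for interleukin 21, rose from 3.05, 3.75 and 2.46 CPM to 10.9, 11.9 and 7.52 CPM (log2 fold change 1.71, SE 0.213; edgeR adjusted p = 0.00132). Its day 40 levels also remained below the culture libraries, which had 44.4, 63.3 and 41.7 CPM. CD27 (0.61) was called in every alternative tried. S1PR2, which confines B cells to the germinal centre (0.42), lost its call without day 19 replicate 3 (adjusted p = 0.0715). FCRL3 (0.72) lost it without day 19 replicate 2, day 40 replicate 2 or day 19 replicate 3 (0.0624, 0.0559 and 0.0752). MME, which encodes CD10, was lower by a small margin (log2 fold change -0.23), and its call was lost without any of the day 19 libraries (0.0778, 0.0728 and 0.0998 for replicates 1 to 3).

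Of the 13 enzymes and other markers, 7 were higher and none was lower. SERPINA9 (chromosome 14, 94462717 to 94479689, minus strand), a protease inhibitor that is a germinal centre marker, had 2.33, 3.89 and 2.89 CPM at day 19 and 41.4, 28 and 16.4 CPM at day 40. Each day 40 library was several times above every day 19 library, although the day 40 libraries differed among themselves (log2 fold change 3.24, SE 0.325; edgeR adjusted p = 0.000553). In culture it had 83.3 CPM ± 5.77 (SD, n = 3). NEIL1, a DNA glycosylase, rose from 38.2, 36.1 and 38.1 CPM to 78.5, 80.2 and 74.8 CPM (log2 fold change 1.05, SE 0.0571; edgeR adjusted p = 2.02e-05). MAN2C1, whose exons overlap NEIL1 on the opposite strand, was not called (37.3 against 43.9 CPM, adjusted p = 0.0772). Its groups did not overlap, and it was called higher with the sampling period as a block (edgeR adjusted p = 0.0458). SUGCT, a CoA transferase, rose from 38.5, 39.3 and 36.2 CPM to 68.7, 86.7 and 90 CPM, although its culture libraries had only 4.67, 5.92 and 3.6 CPM. ASB13 (0.63), MYBL1 (0.44), IRAG2 (0.43) and MARCKSL1 (0.37) were also called higher. Over the list, 12 of the 19 rises were called in each of the 14 alternatives.

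**Figure D2:**
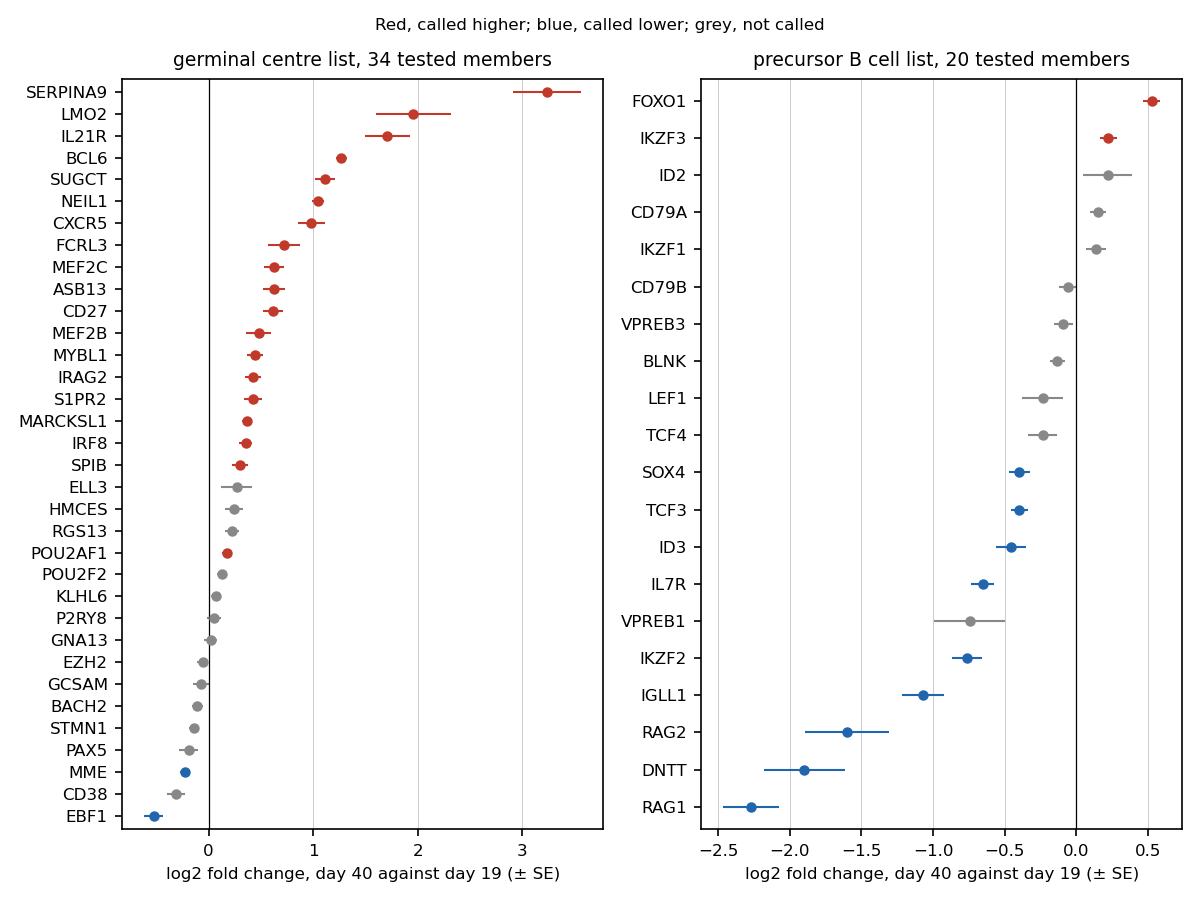
Log2 fold changes at day 40 against day 19 (horizontal axis, point, with its standard error as a bar) of the 34 tested germinal centre members and the 20 tested precursor B-cell members. Red points were called higher, blue lower and grey were not called; SERPINA9 is the top germinal centre member at 3.24, and RAG1 the lowest precursor member at -2.27.

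Precursor B-cell genes fell more often than they rose. Of 20 tested members, 9 were called lower and 2 higher, with a median log2 fold change of -0.32. RAG1, RAG2 and DNTT, the 3 genes of the recombinase and terminal transferase group, were among the falls. RAG1, a recombinase subunit (chromosome 11, 36510709 to 36593156, plus strand), had 11.5, 17.3 and 17.5 CPM at day 19 and 3.66, 3.28 and 2.59 CPM at day 40. The lowest day 19 library was well above the highest day 40 library, and RAG1 fell by 2.27 on the log2 scale (SE 0.194; edgeR adjusted p = 0.000277). RAG2, the other recombinase subunit, had 1.84, 3.42 and 2.11 CPM at day 19 and 0.814, 0.684 and 0.92 CPM at day 40 (162 against 64 counts over 3 libraries; log2 fold change -1.60, SE 0.296; edgeR adjusted p = 0.00971). RAG1 and RAG2 overlap over 588 exonic bases on opposite strands, and the strand setting of the counts is not given in the sources used here. DNTT, the terminal transferase, had 1.62, 1.85 and 1.64 CPM at day 19 and 0.444, 0.342 and 0.585 CPM at day 40 (113 against 36 counts), a fall of 1.90 on the log2 scale (edgeR adjusted p = 0.00319). All 3 genes were nearly silent in culture, with means of 0.427 CPM for RAG1, 0.0271 CPM for RAG2 and 0.0129 CPM for DNTT.

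IGLL1, a component of the surrogate light chain, had 280, 343 and 361 CPM at day 19 and 124, 196 and 147 CPM at day 40 (log2 fold change -1.07, SE 0.148; edgeR adjusted p = 0.00216). The day 40 levels lay below every day 19 library and still above the culture mean of 4.18 CPM. IGLL1 resembles other lambda light chain genes, and the sources used here do not say how multi-mapping reads were counted. VPREB1, its partner, had means of 2.22 and 1.32 CPM and was not called (log2 fold change -0.74, adjusted p = 0.106). CD79A and CD79B, the signalling chains of the B-cell receptor, were not called either (0.15 and -0.06).

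Among the regulators and markers of precursor cells, 5 of 11 were lower and 2 were higher. IKZF2, the Helios factor, had 236, 285 and 272 CPM at day 19 and 129.7, 175 and 162 CPM at day 40, a fall of 0.77 on the log2 scale (edgeR adjusted p = 0.00213). IL7R, the interleukin 7 receptor that supports precursor B cells, had 106, 111 and 96.8 CPM and then 59.5, 67.1 and 73.1 CPM (log2 fold change -0.65; edgeR adjusted p = 0.00129). For both genes the groups did not overlap. TCF3, a basic helix-loop-helix factor of the B lineage, and SOX4 each fell by 0.40 on the log2 scale. ID3, an inhibitor of such factors, was lower by 0.45, with a call that was lost without day 19 replicates 2 or 3 (adjusted p = 0.127 and 0.114) or day 40 replicates 1 or 3 (0.0519 and 0.0623). FOXO1, which also acts in germinal centre cells, rose from 96.9, 97.8 and 93.1 CPM to 142, 146 and 127 CPM (log2 fold change 0.53; edgeR adjusted p = 0.000905). IKZF3 was called higher by a narrow margin (0.22), and 5 of the 6 fits that each left out a library did not call it (adjusted p = 0.08, 0.221, 0.1, 0.156 and 0.136 without day 19 replicate 1, day 19 replicate 2, day 40 replicate 2, day 19 replicate 3 and day 40 replicate 3). Of the 9 falls in the list, 8 were called in every alternative.

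Of 10 B-cell surface antigens, 5 were called higher and 1 lower, and of 27 genes of B-cell receptor signalling, 6 were called higher and 1 lower (2 lower with the sampling period as a block). The co-receptors and inhibitors of the receptor had 3 of 11 tested members higher and none lower, with a median log2 fold change of 0.12. CD22, an inhibitory co-receptor, had 214, 211 and 204 CPM at day 19 and 464, 465 and 373 CPM at day 40, with no overlap (log2 fold change 1.05, SE 0.0794; edgeR adjusted p = 0.000154). MS4A1, which encodes the CD20 antigen that the cells were sorted on, had 523, 442 and 428 CPM at day 19 and 736, 690.1 and 686 CPM at day 40 (log2 fold change 0.60, SE 0.0737; edgeR adjusted p = 0.00129). Cells of both days passed the same CD20 gate, and its part in the MS4A1 levels was not tested. CD37 (0.48), CD53 (0.52) and CD180, a Toll-like receptor homologue (1.02), were called higher in every alternative. CD74, the invariant chain of class II, was higher by 0.27 and CD24 lower by 0.35, and they were called in 9 and 10 of the 14 alternatives.

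Within the receptor pathway, the kinase gene LYN rose from 53.5, 51.8 and 56.1 CPM to 77, 84.8 and 75.3 CPM (log2 fold change 0.56; edgeR adjusted p = 0.000882). PIK3CD, a catalytic subunit of PI3 kinase, fell from 302, 300.2 and 297 CPM to 224, 244 and 234 CPM (log2 fold change -0.36; edgeR adjusted p = 0.00174). For both genes the groups stood apart. Plasma cell genes were called less firmly: JCHAIN (0.43), ZBTB20 (0.50) and TNFRSF17 (0.96) were the 3 of 15 tested members called higher, and no member was lower. None of the 3 held without day 19 replicate 2 (adjusted p = 0.0737, 0.0816 and 0.0895) or without day 19 replicate 3 (0.056, 0.158 and 0.158). The plasma cell regulators IRF4 (log2 fold change -0.12, adjusted p = 0.891), PRDM1 (0.84, adjusted p = 0.364) and XBP1 (0.17, adjusted p = 0.206) were not called.

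Of 57 tested interferon-response genes, 18 were called higher at day 40 by edgeR and none lower (2 lower at an unadjusted p under 0.05, and none by the DESeq2 Wald test or limma voom) and the median log2 fold change was 0.34. The DESeq2 Wald test called 22 members higher, limma voom 13 and the fit with all 9 libraries 16. With the sampling period as a block, 30 members were called higher and 1 lower. Without day 19 replicate 2 the count was 10, and without day 19 replicate 3 it was 9. None of the 10 interferon genes themselves was expressed highly enough to be tested. IFI44L (chromosome 1, 78619922 to 78646145, plus strand), an interferon-induced gene, had the largest rise of all genes tested. It had 1.35, 1.57 and 0.862 CPM at day 19 and 19.9, 32.3 and 12.7 CPM at day 40 (83 against 1787 counts over 3 libraries). The day 40 libraries stood far above both day 19 and culture (culture mean 1.27 CPM ± 0.592, SD, n = 3), with replicate 2 the highest (log2 fold change 4.11, SE 0.364; edgeR adjusted p = 0.00031). Its neighbour and paralog IFI44 had 1.39, 1.28 and 1.94 CPM at day 19 and 9.62, 12.2 and 7.36 CPM at day 40 (log2 fold change 2.66, SE 0.237; edgeR adjusted p = 0.00031).

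Sensors of nucleic acids were represented by 4 of 8 tested members. AIM2, which senses cytosolic DNA, rose from 18.8, 14.6 and 10.8 CPM to 28.5, 30 and 26.1 CPM (log2 fold change 0.94; edgeR adjusted p = 0.00714). IFI16, another DNA sensor, rose from 302, 288 and 276 CPM to 355, 391 and 361 CPM, a smaller change (0.36). IFIH1, the RNA sensor MDA5 (1.74), and TLR7, an endosomal RNA receptor (1.21), were low in all libraries. Without day 19 replicate 2, day 19 replicate 3 or day 40 replicate 2, the adjusted p was 0.0586, 0.0838 and 0.0554 for IFIH1 and 0.141, 0.121 and 0.105 for TLR7. IFIH1 also lost its call without day 19 replicate 1 (0.0587), and TLR7 without day 40 replicate 1 (0.0582). Of 9 signalling genes and transcription factors, IRF7 rose from 15.2, 15.2 and 16 CPM to 32.8, 35.9 and 22.9 CPM (log2 fold change 0.98; edgeR adjusted p = 0.00313). STAT2 was called at 0.28 but not without day 19 replicate 3 (adjusted p = 0.0758). IRF9 (0.69, adjusted p = 0.159) was not called.

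Of 35 antiviral effectors, 12 were higher. OAS1, an enzyme that activates RNase L, rose from 12.6, 11.1 and 10.6 CPM to 27.2, 26.1 and 19.1 CPM (log2 fold change 1.08; edgeR adjusted p = 0.00152). BST2, which tethers budding virus particles, rose from 61, 63.7 and 61.3 CPM to 92.5, 88.3 and 79.5 CPM, a change of 0.49 with tight groups (edgeR adjusted p = 0.00178). EPSTI1 (1.59) and PLSCR1 (0.83) were likewise called in every alternative. A further set depended more on single libraries. IFIT1 had 1.88, 2.33 and 1.59 CPM at day 19 and 4.4, 11.5 and 4.6 CPM at day 40, RSAD2 had 0.763, 0.807 and 0.905 CPM and then 2.15, 6.26 and 2.13 CPM, and IFI6 had 2.96, 3.56 and 3.23 CPM and then 5.74, 13.5 and 5.94 CPM. In each of these genes day 40 replicate 2 stood well above the other day 40 libraries, and the groups did not overlap. IFIT1, RSAD2 and IFI6 lost their calls without day 19 replicate 1 (adjusted p = 0.0604, 0.0714 and 0.0931), replicate 2 (0.0532, 0.0852 and 0.0901) or replicate 3 (0.0721, 0.0666 and 0.0951). IFIT2 (1.18), TRIM22 (0.36) and SP100 (0.27) were also called. Without day 19 replicate 2 or 3, the adjusted p was 0.101 and 0.103 for IFIT2, 0.0532 and 0.0609 for TRIM22 and 0.125 and 0.137 for SP100. IFIT2 and SP100 were also lost without day 19 replicate 1 (0.0824 and 0.142) and on leaving out day 40 replicate 2 (0.078 and 0.133), and SP100 without day 40 replicate 1 (0.103). Limma voom did not call IFIT1, RSAD2, IFI6, IFIT2 or SP100.

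Day 40 replicate 2 had the highest day 40 level in 15 of the 18 genes, and day 40 replicate 1 in the other 3. Without day 40 replicate 2, 14 interferon members were called higher. No member of the negative feedback group was called: ISG15, an ubiquitin-like protein, had means of 4.59 and 9.03 CPM (log2 fold change 0.98, adjusted p = 0.0689), and neither USP18 (0.25, adjusted p = 0.699) nor SOCS1 (-0.18, adjusted p = 0.634) was called. Without day 40 replicate 1, SOCS1 was called lower (-0.47, adjusted p = 0.0227). ISG15 was called with the sampling period as a block. MX1, a GTPase widely used as an interferon marker, had means of 1.78 and 1.18 CPM (log2 fold change -0.59, adjusted p = 0.209).

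The promoters of these genes were searched for the core of the interferon-stimulated response element, which is GAAA, any 2 bases and GAAA again, on both strands and with overlapping matches counted, in the 250 bases before and 50 bases after the start of each gene in the RefSeq annotation of GRCh38.p14. The motif was found in 996 of 27305 promoters (3.65%) and in 304 of 10163 promoters of tested genes (2.99%). It was found in 23 of 43 promoters of tested interferon members (53.5%), in 9 of the 14 called higher (64.3%) and in 14 of the 29 not called (48.3%). The windows printed here show where the motif lies in 6 members that rose and in ISG15, which was not called. Each is 30 bases of the gene's own strand, written 5′ to 3′, with the motif in capitals; in the IFIT1 window the motif is on the opposite strand. Where a promoter held several matches, 1 of them is printed.
IFI44L: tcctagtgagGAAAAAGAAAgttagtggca
IFIT1: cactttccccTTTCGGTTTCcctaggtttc
IFI6: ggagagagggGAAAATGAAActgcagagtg
BST2: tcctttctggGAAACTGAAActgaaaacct
EPSTI1: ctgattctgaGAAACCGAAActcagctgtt
IFIH1: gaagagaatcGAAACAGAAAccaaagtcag
ISG15: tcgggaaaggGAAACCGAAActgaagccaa

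The windows lie at chr1:78620365-78620394 for IFI44L, chr10:89392510-89392539 for IFIT1, chr1:27672288-27672317 for IFI6, chr19:17405741-17405770 for BST2, chr13:42992272-42992301 for EPSTI1, chr2:162318686-162318715 for IFIH1 and chr1:1013380-1013409 for ISG15. IFI6, BST2, EPSTI1 and IFIH1 are on the minus strand and the others on the plus strand. The IFI44L window occurs with identical letters at chr1:78620274-78620303, so that the motif stands 73 and 164 bases before the start. The printed match begins 103 bases before the start in IFIT1, 115 in IFI6, 130 in BST2, 50 in EPSTI1, 21 in IFIH1 and 107 in ISG15. Further matches began 116 bases before the start in IFIT1, again on the opposite strand, 156 and 93 in IFI6, 124 in BST2 and 113 in ISG15. IFIH1 had further matches at 159 and 153 bases, both on the opposite strand. Positions were listed only for matches with at least 10 bases between the motif and the start, and among these EPSTI1 had no other. These matches describe the sequence only and do not show binding.

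**Figure D3:**
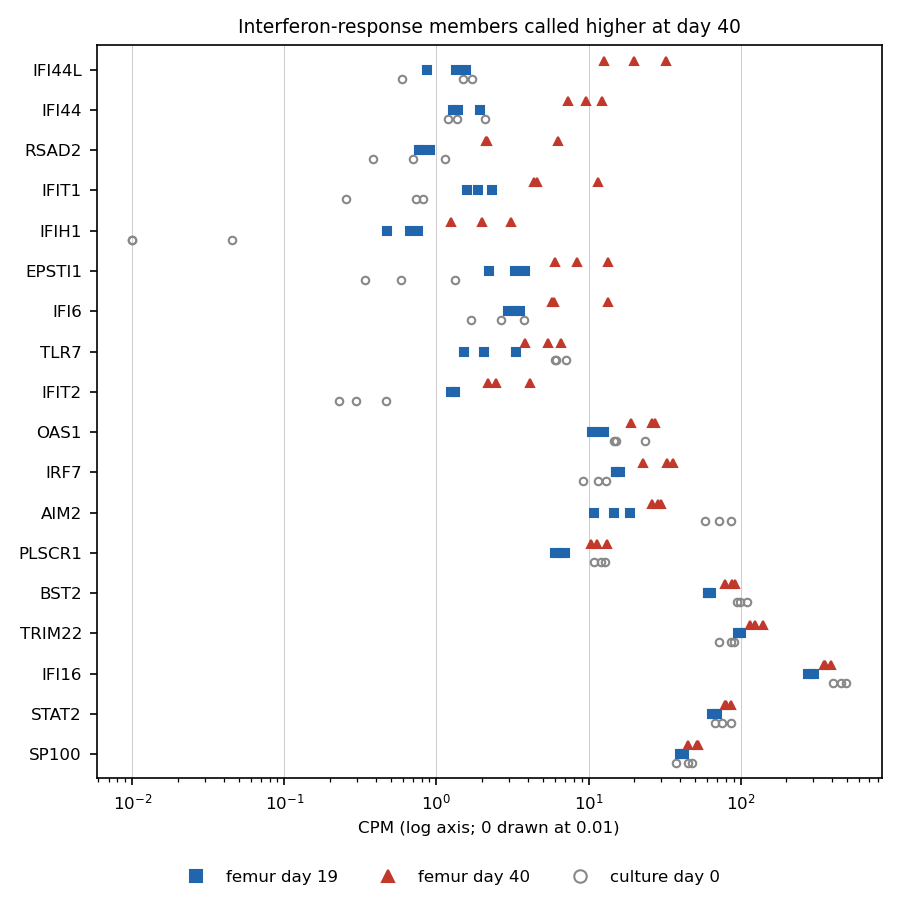
CPM (horizontal axis, log scale, with 0 drawn at 0.01) of the 18 interferon-response genes called higher at day 40, with a point per library. Blue squares are the day 19 libraries, red triangles the day 40 libraries and open circles the culture libraries; the red triangles lie to the right of the blue squares in all 18 genes.

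Class II genes present antigen to helper T cells. Of 16 tested members, 6 were called higher by edgeR and none lower, also at an unadjusted p under 0.05, with the DESeq2 Wald test or with limma voom (median log2 fold change 0.36), and all 6 were among the 11 chains and chaperones. HLA-DOB, a chain of the DO chaperone, had 13.8, 13.7 and 12.1 CPM at day 19 and 21.9, 23.9 and 18.5 CPM at day 40 (log2 fold change 0.70, SE 0.111; edgeR adjusted p = 0.00445). It was the only class II gene called in every alternative. HLA-DQA1 (0.76), HLA-DQB1 (0.69), HLA-DMB (0.58), HLA-DMA (0.44) and HLA-DRA (0.43) were the others. The class II count was 3, 2 and 1 without day 19 replicates 1, 2 and 3, and 4 without day 40 replicate 1 or 2. It was 10 without day 40 replicate 3 and 11 with the sampling period as a block. CIITA, the class II transactivator, was not called (145 against 150.4 CPM; log2 fold change 0.05, adjusted p = 0.763).

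Class I genes had a median log2 fold change of -0.13, with 4 of 20 tested members lower and 1 higher. NLRC5, the transactivator of class I genes, had 241, 276 and 249 CPM at day 19 and 156, 173 and 168 CPM at day 40. The groups were well apart, and NLRC5 fell by 0.62 on the log2 scale (SE 0.063; edgeR adjusted p = 0.000553), with a culture mean of 55.2 CPM. HLA-F (-0.52), PSMB8, a subunit of the immunoproteasome (-0.27), and PSME1 (-0.22) were called lower, and PDIA3, a chaperone (0.28), higher. Only NLRC5 was called in every alternative, and without day 19 replicate 2, day 19 replicate 3 or day 40 replicate 3, 1 class I gene was called lower. B2M (893, 858 and 841 against 884, 924 and 815 CPM; adjusted p = 0.903) was not called. Reads of HLA genes resemble each other, and how they were assigned is not given in the sources used here.

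Targets of p53 were higher in 8 of 28 tested members (4.75% over all genes tested), with a median log2 fold change of 0.19. None was lower with all 6 libraries, but without day 40 replicate 1 GADD45A, a growth arrest gene (log2 fold change -0.42, adjusted p = 0.00908), and PMAIP1, the death gene NOXA (-0.35, adjusted p = 0.0127), were called lower; over all 6 libraries their log2 fold changes were -0.13 and -0.09. FAS, a death receptor, had 0.583, 0.712 and 0.646 CPM at day 19 and 1.92, 2.26 and 2.34 CPM at day 40 (43 against 174 counts; log2 fold change 1.74, SE 0.241; edgeR adjusted p = 0.00216). Its exons overlap those of ACTA2 on the opposite strand, which was not called. CDKN1A, the cell cycle inhibitor p21, had 14.9, 12.9 and 17.6 CPM at day 19 and 37.1, 26 and 23.9 CPM at day 40 (log2 fold change 0.94, SE 0.167; edgeR adjusted p = 0.00848). Day 40 replicate 1 was the highest, and the groups did not overlap. SESN1, a stress-response gene (0.85), and RRM2B, a ribonucleotide reductase subunit (0.49), were called in every alternative. BBC3, the death gene PUMA (0.69), ZMAT3 (0.41), TP53INP1 (0.49) and TNFRSF10B (0.24) were not: all 4 were lost without day 19 replicate 2 (adjusted p = 0.0535, 0.0724, 0.15 and 0.187), and the list then held 4 calls. Without day 19 replicate 3 it held 5 (adjusted p = 0.077 for ZMAT3, 0.168 for TP53INP1 and 0.155 for TNFRSF10B). TP53INP1 and TNFRSF10B were also lost without day 40 replicate 1 (0.0963 and 0.0931) or replicate 2 (0.0626 and 0.0659). MDM2, the p53 ligase, was not called (181 against 210.1 CPM; 0.22, adjusted p = 0.0864). The p53 response element, allowing up to 13 bases between its parts, was found in 8 of 27305 promoters (0.0293%) and in 0 of 22 promoters of tested p53 targets in the table, which says only that these letters are not in these 300 bases.

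In the BCL2 family, 1 of 9 tested members was called. HRK, a death-promoting BH3-only gene, had 174, 178 and 189 CPM at day 19 and 93.6, 92.7 and 112 CPM at day 40; each day 40 library was far below every day 19 library (log2 fold change -0.86, SE 0.0736; edgeR adjusted p = 0.000277). BCL2 itself, which the t(14;18) translocation activates in follicular lymphoma, was not called: it had 326, 313 and 308 CPM and then 311, 341 and 341 CPM (log2 fold change 0.07, SE 0.052; adjusted p = 0.504). With the sampling period as a block, BMF, another BH3-only gene, was called higher (0.48, adjusted p = 0.0447).

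NF-kB genes had 4 of 17 tested members higher and none lower (median log2 fold change 0.35). REL, the subunit most linked to germinal centre lymphomas, rose from 88.6, 75.5 and 78.6 CPM to 133, 108 and 121 CPM (log2 fold change 0.58, SE 0.0827; edgeR adjusted p = 0.00263). NFKB2 (0.41), RELB (0.35) and TRAF1 (0.83) were called in fewer alternatives. The count was 2 without day 19 replicate 1 or day 40 replicate 2, 1 without day 19 replicate 2, and 7 with the sampling period as a block. Of 18 tested immediate early genes 1 was called, IER2 (0.46), and it was lost without day 19 replicates 1 or 2 (adjusted p = 0.0574 and 0.0906) or day 40 replicates 1 or 2 (0.0558 and 0.0651). The block added EGR2 (1.20, adjusted p = 0.0288). SPRED2, an inhibitor of ERK signalling, was the 1 of 7 tested ERK feedback genes called, rising from 7.54, 4.75 and 8.49 CPM to 14.8, 13.2 and 11.5 CPM (log2 fold change 0.93; edgeR adjusted p = 0.0175).

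Of 31 ligands that act on stromal cells, 9 could be tested and 2 were higher. BMP7, a bone morphogenetic protein, had 281, 269 and 269.5 CPM at day 19 and 352, 329 and 354 CPM at day 40 (log2 fold change 0.34, SE 0.0483; edgeR adjusted p = 0.00262). TGFB1, transforming growth factor beta 1, had 111, 125 and 121 CPM and then 147, 143 and 141 CPM (log2 fold change 0.27, SE 0.0539; edgeR adjusted p = 0.0141). In both genes every day 40 library was above every day 19 library, and culture was higher still, with 674, 734 and 664 CPM for BMP7 and 202, 182 and 174 CPM for TGFB1. The TGFB1 call was lost without day 19 replicate 3 (adjusted p = 0.0525). With the sampling period as a block, 4 ligands were called higher and 1 lower. Without day 40 replicate 1, VEGFA, an angiogenic factor (-0.38, adjusted p = 0.00527), and TGFB3 (-1.17, adjusted p = 0.0448) were called lower. The tumour necrosis factor genes TNF, LTA and LTB were too low to be tested, with at most 0.629 CPM in any femur library.

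Homing genes had 2 of 16 tested members higher and 2 lower, and 4 higher and 3 lower with the sampling period as a block. Over all genes tested, 4.75% were called higher and 2.67% lower. CXCR4, the receptor that retains cells in the marrow, had 623, 503 and 624 CPM at day 19 and 479.6, 394 and 474 CPM at day 40. The groups did not overlap, but replicate 2 was the lowest on both days, and the fall of 0.38 on the log2 scale (SE 0.0957; edgeR adjusted p = 0.0407) was lost without day 19 replicate 1 (0.134), day 40 replicate 2 (0.0951) or day 19 replicate 3 (0.157). Its culture level was 123 CPM ± 7.15 (SD, n = 3). S1PR4 (-0.37) was lower, and ACKR3, a scavenger receptor for CXCL12 (1.68), and the integrin gene ITGAL (0.48) were higher. ACKR3 had 0.628, 0.95 and 1.08 CPM at day 19 and 4.52, 2.33 and 1.67 CPM at day 40. All 3 calls were lost without day 19 replicate 1 (adjusted p = 0.0975 for ACKR3, 0.0516 for ITGAL and 0.0544 for S1PR4) and without day 19 replicate 2 (0.0958, 0.0671 and 0.155). ACKR3 and S1PR4 were also lost without day 19 replicate 3 (0.0682 and 0.103) and on leaving out day 40 replicate 1 (0.0515 and 0.0503). KLF2, which controls S1PR1, had means of 51.3 and 52.1 CPM and was not called (log2 fold change 0.02, adjusted p = 0.963). Without day 40 replicate 1, KLF2 was called lower (-0.32, adjusted p = 0.0384).

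Of 33 tested G1/S and replication genes, 8 were lower and 1 was higher, with log2 fold changes of -0.43 to -0.20 for the falls. UHRF1, which maintains DNA methylation at replication, had 637, 717 and 606 CPM at day 19 and 468, 484 and 503 CPM at day 40 (log2 fold change -0.43, SE 0.0645; edgeR adjusted p = 0.00336), and it was the only one of the 8 called in every alternative. E2F2 (-0.37), CCND3 (-0.33), E2F1 (-0.28) and the cell cycle inhibitor CDKN1B (-0.40) were among the rest, and CDK6 (0.33) was the gene that was higher. The count of lower genes was 2 without day 19 replicate 2 or 3 and 5 without day 19 replicate 1. Of 33 G2/M genes, 2 were lower, CDC25B (-0.67) and MYBL2 (-0.24), and CDK1 was higher (0.22); with the sampling period as a block 4 were lower. None of the 3 was called without day 19 replicate 2 (adjusted p = 0.116, 0.082 and 0.116) or replicate 3 (0.118, 0.0668 and 0.188). Among all genes tested the shares were 4.75% higher and 2.67% lower. The proliferation marker MKI67 had 822, 917 and 899 CPM at day 19 and 925, 862 and 911 CPM at day 40 and was not called (log2 fold change 0.03, adjusted p = 0.803). MYC, with 394, 323 and 389.6 CPM and then 343, 356 and 379 CPM, was not called either (-0.04, adjusted p = 0.836). The nuclear noncoding RNA MALAT1 was at 114, 168 and 212 CPM on day 19 and at 185, 159 and 119.9 CPM on day 40. The groups overlapped, and the log2 difference of -0.09 was not called by edgeR (adjusted p = 0.856).

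Of 31 tested cholesterol genes, 6 were higher and 1 lower, with a median log2 fold change of 0.15. Within the list, 5 of 20 synthesis genes were higher. SREBF2, the transcription factor of the pathway, rose from 305, 284 and 281 CPM to 351, 349 and 374 CPM (log2 fold change 0.30, SE 0.051; edgeR adjusted p = 0.00617). The enzyme genes HMGCS1 (0.37), SQLE (0.33), MVD (0.33) and MSMO1 (0.44) were among the other rises, and ABCA1, which exports cholesterol, was lower (-0.30). The count of rises was 1 without day 19 replicate 2 or 3, 3 without day 40 replicate 1 or 3, and 11 with the sampling period as a block, which also called 2 genes lower. With edgeR no gene was called among 52 ribosomal protein genes, 13 mitochondrially encoded genes, 11 fatty acid synthesis genes and 13 heat shock genes. At an unadjusted p under 0.05, 6 ribosomal protein genes were higher, 1 fatty acid synthesis gene was higher and 2 were lower, and 1 heat shock gene was lower. The DESeq2 Wald test called 2 ribosomal protein genes higher, and 1 fatty acid synthesis gene higher and 2 lower; limma voom called none in these 4 lists. The members of smallest p were RPS27 (0.20, adjusted p = 0.058), MT-ND1 (-0.20, adjusted p = 0.267), ELOVL6, a fatty acid elongase (-0.26, adjusted p = 0.0507), and HSF1, the heat shock factor (-0.17, adjusted p = 0.0928). RPS27 was called higher without day 40 replicate 1 (adjusted p = 0.0384), and ELOVL6 lower without day 40 replicate 3 (0.0381). With the sampling period as a block, 1 fatty acid synthesis gene was higher and 1 lower. Of 36 nuclear genes of oxidative phosphorylation, SDHA alone was lower (-0.25), and of 27 glycolysis and hypoxia genes, the glucose transporter SLC2A3 (1.54) and P4HA1 (0.35) were higher and HIF1A (-0.25) was lower; the block and the fit without day 40 replicate 1 each called 2 glycolysis and hypoxia genes lower. Each of these 4 calls was lost without at least 1 library, among them day 19 replicate 1 for SDHA, SLC2A3 and P4HA1 (adjusted p = 0.0552, 0.0512 and 0.0824) and day 19 replicate 3 for HIF1A (0.0503). With 4.75% of all genes tested called higher and 2.67% lower, these few calls are not a result about either list.

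Lysosome and autophagy genes had 3 of 25 tested members higher and 1 lower, with a median log2 fold change of 0.06. The shares over all genes tested were 4.75% higher and 2.67% lower. ULK1, a kinase that starts autophagy, fell from 89.2, 106 and 99.1 CPM to 65.4, 64.7 and 77.7 CPM (log2 fold change -0.50; edgeR adjusted p = 0.00609), and it was called in every alternative. The rises were CTSZ, a lysosomal protease, from 101, 85.5 and 84.9 CPM to 137, 116 and 110.3 CPM (0.42), PSAP, the precursor of saposins (0.27), and the autophagy receptor SQSTM1 (0.33). CTSZ and PSAP, like SQSTM1, lost their calls without day 19 replicate 2 (adjusted p = 0.103 and 0.088) or 3 (0.0979 and 0.0501), and the list then held no rise. It held 5 without day 40 replicate 3 and 6 with the sampling period as a block.

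The remaining lists held few calls. Of 15 tested KLF2 and FOXO targets and regulators, 3 were higher and 1 lower: TXNIP, an inhibitor of thioredoxin (0.39), INSR, the insulin receptor (0.21), and PIK3IP1 (0.75) were higher, and PIK3R1, a regulatory subunit of PI3 kinase, was lower (-0.25). None of the 3 rises was called without day 40 replicate 1, where KLF2, DEPP1 and PIK3R1 were called lower, nor without day 19 replicate 2, day 40 replicate 2 or day 19 replicate 3. PIK3R1 was lost without day 19 replicate 1 or 3 (adjusted p = 0.0585 and 0.053). HDAC7, a histone deacetylase, was the 1 of 19 chromatin regulators called, rising from 151, 159 and 161 CPM to 196, 193 and 195 CPM with tight groups (log2 fold change 0.31; edgeR adjusted p = 0.00313). HDAC7 was called in every alternative, and the block called 3 chromatin genes higher and 1 lower.

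A single gene was called in each of 5 further lists, with small changes. As 7.43% of all genes tested were called, single calls are not a result about these lists. TSC1, an inhibitor of mTOR (0.29), was higher among 12 mTOR genes, PDIA6, a chaperone (0.23), among 14 genes of the unfolded protein response, and FTL, the ferritin light chain (0.18), among 13 redox genes. PHGDH, an enzyme of serine synthesis (-0.21), was lower among 15 ATF4 and amino acid genes, and NOP56, a nucleolar protein (-0.21), among 26 genes of ribosome biogenesis and the MYC network. All 5 calls were lost without day 19 replicate 2 (adjusted p = 0.108, 0.114, 0.155, 0.0823 and 0.138 in this order) and without day 19 replicate 3 (0.11, 0.138, 0.143, 0.178 and 0.154). On leaving out day 40 replicate 2 they were lost as well (0.0797, 0.0594, 0.0959, 0.0761 and 0.0879). FTL and PHGDH were called in none of the 6 fits that each left out a library. With the sampling period as a block, 3 genes of the unfolded protein response were higher, 3 ATF4 and amino acid genes were lower and 2 genes of ribosome biogenesis and the MYC network were lower. Of 11 long noncoding RNAs, PVT1 was higher (0.41) and TCL6 was lower; the PVT1 call was lost without day 19 replicates 1, 2 or 3 (adjusted p = 0.0673, 0.0644 and 0.0518) or day 40 replicate 2 (0.0553). TSC1, PDIA6, HDAC7, NOP56 and PVT1 share exonic bases with other annotated genes.

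**Figure D4:**
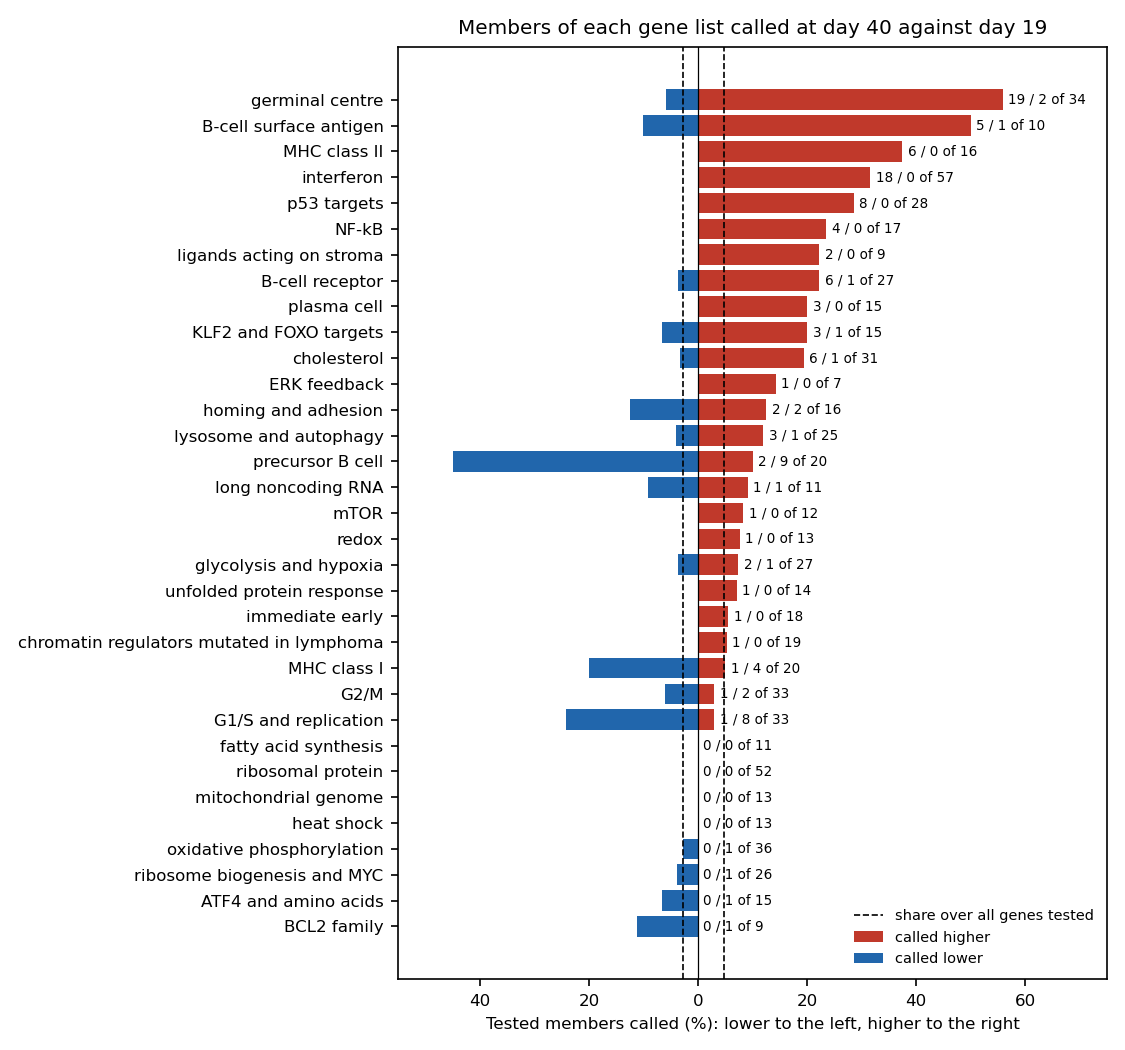
Bars give the share (%) of the tested members of each gene list that were called higher (red, to the right) or lower (blue, to the left) at day 40, with the counts beside them, and dashed lines mark the shares over all genes tested (4.75% and 2.67%). The germinal centre list has 19 of 34 members higher, and the precursor B-cell list has 9 of 20 lower.

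Over the 34 lists, of which 1 had no tested member, 702 distinct genes were tested, of which 99 were called higher and 38 lower. These lists were drawn up with earlier results of these data known, so the share of members called (19.5%, against 7.43% of all genes) is a description of the lists.

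Several of the largest rises by the naming rule were in genes outside the lists. SCN3A, a voltage-gated sodium channel, had 1.12, 0.902 and 0.56 CPM at day 19, 5.85, 8.83 and 2.68 CPM at day 40 and 0 counts in all 3 culture libraries (log2 fold change 2.75, SE 0.433; edgeR adjusted p = 0.00419). SYNPO2, an actin-binding protein, rose from 10.5, 10.8 and 4.83 CPM to 36.1, 34.7 and 23.3 CPM (log2 fold change 1.86, SE 0.259; edgeR adjusted p = 0.00229), above all 3 culture libraries, which had 8.76 to 14.5 CPM. FHOD3, a formin that nucleates actin, rose from 2.42, 2.14 and 2.76 CPM to 7.99, 8.14 and 8.78 CPM (1.76; edgeR adjusted p = 0.00031). For all 3 genes the groups did not overlap. PSD3 (1.93) and the transcription factor gene TFEC (1.73) were called in every alternative. ASXL3, a Polycomb-associated gene, rose by 2.19 on the log2 scale and lost its call without day 19 replicate 2 (adjusted p = 0.0517). COL27A1, a fibrillar collagen gene, had 0.449, 0.902 and 0.302 CPM and then 3.96, 10.6 and 1.25 CPM. Its day 40 libraries differed widely, and its call (3.28; edgeR adjusted p = 0.0227) was lost without any of the day 19 libraries (0.0837, 0.0614 and 0.0979 for replicates 1 to 3) and with limma voom (0.129).

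Beside RAG1 and IGLL1, the largest falls by the naming rule were in genes of low or moderate level. TCL6, a long noncoding RNA of the TCL1 locus, fell from 14.6, 18.4 and 15.7 CPM to 7.96, 5.68 and 7.23 CPM (log2 fold change -1.22, SE 0.146; edgeR adjusted p = 0.00111). RIMS3, a synaptic gene, fell from 94.8, 116 and 129 CPM to 43.1, 68.5 and 60.2 CPM (-0.98; edgeR adjusted p = 0.00419), and TSPOAP1 fell from 37.2, 48.7 and 48.8 CPM to 22.9, 20.3 and 23.1 CPM (-1.02; edgeR adjusted p = 0.000666). In these genes all day 40 libraries were below all day 19 libraries and above the culture mean. KREMEN1, a receptor for the Wnt inhibitor DKK1 (-1.30), LCN8 (-1.55) and DOK7, an adaptor of the neuromuscular junction (-1.28), had at most 0.297 CPM in every culture library and 3.61 to 8.96 CPM at day 19. CTXN1 (-1.31), CFAP73 (-1.07) and EYA4 (-1.02) were also called in every alternative. MYBPH (-1.05) was not: it was lost without day 19 replicate 2 (adjusted p = 0.0943), day 40 replicate 2 (0.0673) or day 19 replicate 3 (0.0871). CFAP73 shares 501 exonic bases with DDX54 on the opposite strand. DDX54 had means of 232 and 209 CPM, without overlap between the groups, and was not called (edgeR adjusted p = 0.115).

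**Figure D5:**
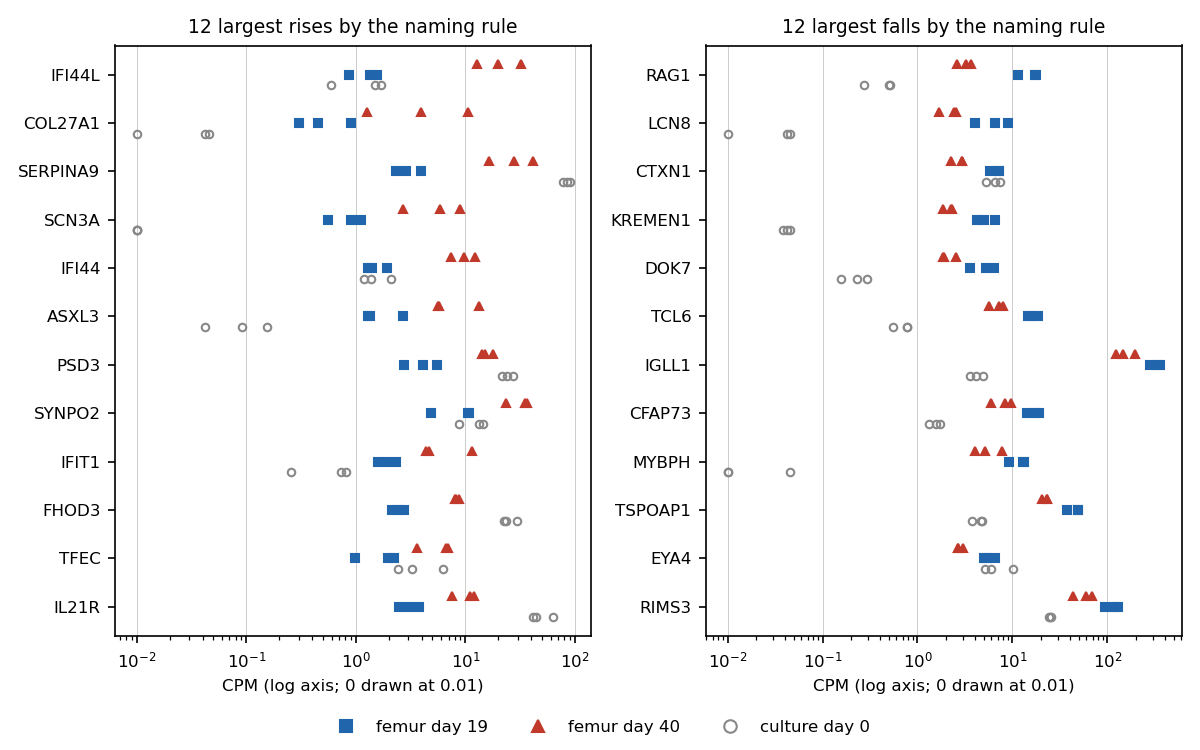
CPM (horizontal axis, log scale, with 0 drawn at 0.01) in each library of the 12 largest rises (left) and 12 largest falls (right) chosen by the naming rule. Blue squares are day 19, red triangles day 40 and open circles culture; day 19 and day 40 do not overlap in any of these genes, which the rule required.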

How the data were processed

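RNA-seq libraries of DOHH2 cells were read as the authors deposited them: whole-number counts of reads per Ensembl gene, not normalized. Per the submitters' processing notes, FastQC 0.11.5, STAR 2.5.2a, featureCounts 1.4.6 and DESeq2 1.40.1 were used with hg38. The sources used here do not give the annotation, the strand setting or the treatment of multi-mapping and mouse reads. Overlapping genes and close paralogs are therefore uncertain.

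Symbols came from a table of gene names for 57532 of 58243 identifiers and from GENCODE release 29 for another 448; gene positions are from GENCODE 29 (hg38). In R 4.3.3 with edgeR 4.0.16, genes were filtered with filterByExpr, scaled by TMM and tested with the two-sided quasi-likelihood F-test over the 6 femur libraries, with Benjamini-Hochberg adjustment over 14807 genes. All adjusted p-values come from this fit unless another is named. The culture libraries stayed out of the fit and entered it in an alternative. CPM uses TMM-scaled library sizes, from the 6 femur libraries for femur values and from all 9 libraries for culture values. Culture and femur CPM are therefore not on exactly the same scale. A log2 fold change is day 40 minus day 19. An unadjusted p under 0.05 was reached by 3152 genes.

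Same-period libraries deviated together from their group means (correlations of 0.108, 0.136 and 0.314; the pairing comes from the dates in the titles), so a fit with the sampling period as a block is given where it changes a count by more than 1.5 times. Pairs of libraries of a group differed by more than sampling noise (chi-square per gene of 5.579 to 16.3), so none was treated as a duplicate. Tested on simulated data for this comparison (14807 genes), the test recovered 52.2% of changes of 0.5, 75.8% of changes of 1 and 97% of changes of 2 on the log2 scale. Only 67, 66 and 66 genes were changed by these sizes. Of its 166 calls, 10.2% were unchanged genes, a share above the threshold of 0.05. Unlike the data, the simulation had no effect of the sampling period and no library that stood apart. Depth per library is given in the report. Precision is set by the number of libraries and, for low genes, also by their counts, with a biological coefficient of variation of 9.084%.

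Genes were named by rule: the 12 largest rises and 12 largest falls among called, non-overlapping genes with a symbol and a group mean of at least 5 CPM; from each list the 3 called members of smallest p, or the tested member of smallest p if none was called; every called member of the interferon, germinal centre, p53 and precursor B-cell lists; and a fixed set of TNF, LTA, LTB, CXCR4, TGFB1, BCL2, BCL6, B2M, MALAT1, MKI67, MS4A1 and MYC. Other list members named, and the genes overlapping named ones, were chosen after their values were seen. The members and lists were chosen with earlier results of these data known. Alternatives were DESeq2 1.42.0 size factors, total library size, no filter and a stricter filter (at least 1 CPM in 3 libraries), all 9 libraries, the DESeq2 Wald test, limma 3.58.1 voom, the block, and leaving out each library. Every gene named by the rule is given in the text; other list members are counted, and some of them are not reported here by name.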

Additional observations from a re-analysis of the deposited data

How the results depend on the processing

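No named gene or gene count reversed with a called direction under the 14 alternatives, and no gene was called in opposite directions; KLF2, not called with all 6 libraries (0.02), was called lower without day 40 replicate 1 (-0.32); 286 of the 704 higher and 104 of the 396 lower genes were called in all of them, as were 65 of the 128 named genes that were called. Without a filter on low counts, which raised the genes tested to 29811, 1192 genes were called higher and 654 lower, with 298 and 84 at 2-fold or more; they then included 6 heat shock genes that were high in day 40 replicate 1 alone. With the replicate block (the sampling period), 646 genes were called lower and 1008 higher; the block removed no call of a named gene. With all 9 libraries in the fit, 220 genes were called lower and 490 higher. Leaving out each library in turn gave 337 to 716 higher, 134 to 357 lower, 97 to 220 higher by at least 2-fold and 21 to 49 lower by at least 2-fold; the lowest counts came without day 19 replicate 2 or 3. For every count above, the cause was not tested. The DESeq2 size factors, total library size, the stricter filter, the DESeq2 Wald test (787 higher, 533 lower) and limma voom kept every one of the 4 counts within 1.5 times. Another scaling moved the median log2 fold change of all genes from 0.0036 to at most -0.0023. Low genes such as RAG2, DNTT, LMO2 and FAS rest on few counts, so their fold changes are less precise than those of BCL6 or MS4A1.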

Other observations

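Outside the naming rule, the genes with the smallest p were chosen after their values were seen. MOB3A, a regulator related to the Hippo pathway, had 45.5, 45.7 and 42.7 CPM at day 19 and 119, 117 and 109 CPM at day 40 (log2 fold change 1.37, SE 0.0575; edgeR adjusted p = 3.61e-06), and 245 CPM on average in culture. Some of the other genes of smallest p belong to B-cell biology and are given here. Each was called in all 14 alternatives, with the same direction in all 3 periods. Genes chosen by small p tend to have both properties, so these add no support. Others of similar rank included MYBPC2 (log2 fold change 1.66), FGD6 (0.90) and UXS1 (-0.84). TLR10, a Toll-like receptor of B cells, rose from 41.9, 42.4 and 39.6 CPM to 71.5, 69 and 68.9 CPM. RFTN1, a raft protein of the B-cell receptor pathway, rose from 70.2, 59.4 and 65.4 CPM to 116, 127 and 123 CPM. NFATC1, a transcription factor downstream of calcium signals (0.78), RASGRP3, a Ras activator (0.98), and LYL1, a basic helix-loop-helix factor (1.04), were also higher. ARID3A, a B-lineage factor, fell from 107, 112 and 107 CPM to 57.8, 67.5 and 58.6 CPM, and MYB, a factor of precursor cells, fell from 264, 254 and 257 CPM to 158, 175 and 178 CPM (log2 fold changes -0.82 and -0.60; edgeR adjusted p = 0.000193 and 0.000323). Both were lower still in culture, at 7.49 and 82.5 CPM on average.

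By class of gene, 8.74% of 11549 protein-coding genes were called, against 3.01% of 2158 long noncoding genes and 1.83% of 875 pseudogenes. Among chromosomes, the share called higher was 8.69% of 495 tested genes on chromosome 8, against 4.75% over all genes, and no test of this difference was made.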
